A study of Mus musculus with 6 samples.

Results

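The MHC class I presentation pathway was followed through 10 genes of the deposited count table, chosen by gene symbol out of 49315 genes: H2-K1, H2-D1, B2m, Tap1, Tap2, Tapbp, Psmb8, Psmb9, Psmb10 and Nlrc5. All 10 passed the filter on low counts, which left 15142 genes. The cells were total CD8+ T cells, sorted from the lymph nodes that drain a melanoma tumor and sequenced in bulk. The mice were female C57BL/6J, wild type per the labels. The design text names the tumor line B16F10 and the sample labels spell it B26F10, and the age of the mice is not given in the sources used here. Treatment was given once, when tumors measured 50 to 100 mm3, and the cells were taken on day 5. The combination group (3 mice) received HCW9218 under the skin together with an antibody against PD1 into the peritoneum. The monotherapy group (3 mice) received HCW9218 alone, by the same route. The series title describes a complex of TGF-βRII and IL-15, which is HCW9218, and both groups had it, so every comparison below concerns the added antibody and not treatment as such.

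Class I molecules show peptides from the inside of a cell to CD8+ T cells, and nearly all nucleated cells, T cells included, carry them. The peptides are cut by the proteasome, pumped into the endoplasmic reticulum by the TAP transporter and loaded onto a heavy chain paired with beta-2 microglobulin. Interferon-gamma, through IRF1 and the coactivator NLRC5, raises most of these genes and exchanges the catalytic subunits of the proteasome for the immunosubunits.

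The class I promoters carry the sites through which these regulators act, and are shown because genes for the regulators were measured in the same libraries. The sequences are RefSeq's for GRCm38.p6, 5′ to 3′ on the strand of the gene, and 8 of the 10 genes had a promoter entry. Capitals mark a kappaB motif (GGGNNTTCC), an IRF core (AANNGAAA), a CRE half-site (TGACG) and a CCAAT box (CCAAT), each searched on both strands, so that an IRF core can read TTTCACTT and a CCAAT box ATTGG. The first 2 lines are the stretch from 120 to 1 bases before the H2-K1 start (chr17:34000348-34000467, minus strand) and from 145 to 41 bases before the B2m start (chr2:122147542-122147646, plus strand). The next 2 are the kappaB and IRF pair of H2-K1 alone (chr17:34000430-34000458, minus strand) and of H2-D1 (chr17:35262923-35262951, plus strand), and the last is 30 bases before the Tap1 start (chr17:34187458-34187487, plus strand).
H2-K1 promoter: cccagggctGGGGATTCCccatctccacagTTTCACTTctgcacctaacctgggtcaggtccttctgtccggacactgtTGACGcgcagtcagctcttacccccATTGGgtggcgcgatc
B2m promoter: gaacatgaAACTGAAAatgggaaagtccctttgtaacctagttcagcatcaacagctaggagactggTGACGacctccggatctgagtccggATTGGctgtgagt
H2-K1 pair: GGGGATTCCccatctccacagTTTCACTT
H2-D1 pair: GGGGATTCCccatctcctcagTTTCACTT
Tap1 site: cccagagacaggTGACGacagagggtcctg

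The H2-K1 and H2-D1 pairs differed at 1 of 29 bases. Within 250 bases before the start, H2-K1 and H2-D1 held all of these motifs, and B2m held the IRF core, the CRE half-site and the CCAAT box. Tap1 and Psmb9, which are transcribed away from each other with 225 bases between their starts, held the CRE half-site and CCAAT boxes. Psmb8 held a GAS motif (TTCNNNGAA), Tapbp held CCAAT boxes, and no searched motif was found in the Psmb10 window. Among 32851 promoter entries, 4.98% held the kappaB motif, 21.3% the IRF core, 7.02% the GAS motif, 17.8% the CRE half-site and 33.8% the CCAAT box. The H2-D1 pair and the Tap1 site lie inside exons of longer transcripts in the deposited annotation, and a match is only a match of letters.

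None of the 10 genes passed the test of combination against monotherapy. In edgeR's quasi-likelihood test with Benjamini-Hochberg adjustment over 15142 genes, 0 of 10 were called higher, against 0.951% of all genes tested, and 0 of 10 were called lower, against 0.132%. DESeq2 and limma-voom also called 0 of 10. Over all genes, DESeq2 called 258 higher and 59 lower of 20267, and limma-voom 124 higher and 14 lower of 15142. At an unadjusted p under 0.05, 1 of 10 was below the threshold, namely Tapbp, against 8% of all genes. The median log2 fold change of the 10 genes, combination over monotherapy, was -0.08, against -0.001 over all genes tested, with 3 genes above 0 and 7 below. Without combination library 1 the median was -0.20 with 10 of 10 below 0, and without combination library 3 it was 0.03 with 5 below 0. In bulk samples, fewer cells of a type and less RNA per cell cannot be told apart, and the mice are the replicates.

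**Figure D1:**
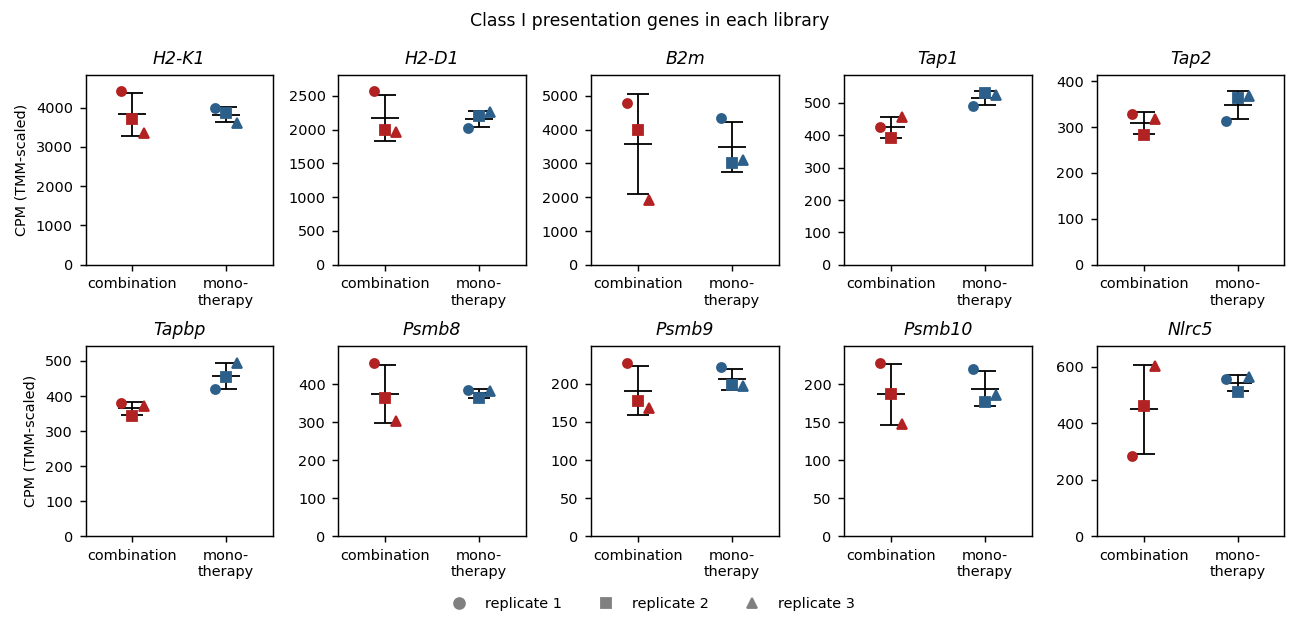
Level of each class I presentation gene in each library, in CPM (counts scaled to library size with TMM factors), with axes that start at 0. Red points are combination mice and blue points monotherapy mice, and bars give the mean and SD over 3 mice. The groups separate for Tap1 and Tapbp, and B2m and Nlrc5 spread widely among the combination mice.

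The heavy chains of classical class I had nearly the same means in both groups. H2-K1, the K heavy chain (17:33996017-34000333, minus strand), had 4425, 3699 and 3359 CPM in the combination libraries 1, 2 and 3, against 3991, 3873 and 3606 CPM in the monotherapy libraries. The ranges overlap, and the combination libraries were both the highest and the lowest. Its means were 3827 ± 545 CPM in the combination and 3823 ± 197 CPM in monotherapy (SD, 3 mice each). Its log2 fold change was 0.00 ± 0.21 (SE; 95% interval -0.47 to 0.48; edgeR adjusted p = 0.999). H2-D1, the D heavy chain (17:35262730-35267499, plus strand), had 2568, 1989 and 1969 CPM in the combination, against 2025, 2200 and 2254 CPM in monotherapy. Combination library 1 was the highest and combination libraries 2 and 3 were the lowest. The log2 fold change of H2-D1 was 0.01 ± 0.20 (SE; 95% interval -0.43 to 0.46; edgeR adjusted p = 0.995). Heavy chain genes are near copies of each other and of the H2-Q genes, and the treatment of reads with several matches is not given in the sources used here, so how their reads were divided is uncertain. The ratio of H2-K1 to H2-D1 per length was 1.70, 1.84 and 1.69 in the combination, against 1.95, 1.74 and 1.58 in monotherapy.

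B2m, the light chain shared by all class I molecules (2:122147686-122153083, plus strand), was the gene with the widest spread. It had 4798, 4006 and 1921 CPM in the combination, against 4352, 3027 and 3112 CPM in monotherapy. Combination library 3 was the lowest of all, at 0.400 of the level in combination library 1, and the groups overlap. The coefficient of variation was 41.6% in the combination and 21.2% in monotherapy. The log2 fold change was 0.03 ± 0.33 (SE; 95% interval -0.72 to 0.78; edgeR adjusted p = 0.994), so a change of either sign within this interval is compatible with these data. It was 0.33 without combination library 3 and -0.22 without combination library 1.

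Tap1 and Tapbp were lower in every combination library than in every monotherapy library, without passing the test. Tap1, one chain of the peptide transporter (17:34187553-34197225, plus strand), had 426, 392 and 456 CPM in the combination, against 491, 530 and 525 CPM in monotherapy. Its means were 424.5 ± 32.2 CPM in the combination and 515 ± 21.4 CPM in monotherapy (SD, 3 mice each). Its log2 fold change was -0.28 ± 0.15 (SE; 95% interval -0.61 to 0.05; edgeR adjusted p = 0.723). Tapbp encodes tapasin, which bridges the transporter and the heavy chain (17:33915899-33929288, plus strand). It had 379, 342 and 373 CPM in the combination, against 420, 455 and 494 CPM in monotherapy. The log2 fold change of Tapbp was -0.32 ± 0.14 (SE), with an edgeR unadjusted p of 0.0497 and an adjusted p of 0.623. Groups that lay apart in this direction were found for 2 of the 10 genes, against 7.54% of all genes tested.

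Tap2, the other chain of the transporter (17:34203527-34216321, plus strand), had 329, 283 and 317 CPM in the combination, against 312, 364 and 368 CPM in monotherapy. Monotherapy library 1 fell among the combination libraries, so the groups overlap. For Tap2 the log2 fold change was -0.17 ± 0.14 (SE; 95% interval -0.49 to 0.15; edgeR adjusted p = 0.926). These 3 genes kept a log2 fold change below 0 under each of 17 other settings, which ran from -0.33 to -0.21 for Tap1, from -0.23 to -0.07 for Tap2 and from -0.37 to -0.26 for Tapbp, and none was called in any of them. The ratio of Tap1 to Tap2 per length was 0.894, 0.955 and 0.995 in the combination, against 1.09, 1.01 and 0.986 in monotherapy.

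The 3 immunosubunits of the proteasome overlapped between the groups. Psmb8, which takes the place of Psmb5 in the immunoproteasome (17:34197721-34201454, plus strand), had 455, 363 and 303 CPM in the combination, against 384, 363 and 381 CPM in monotherapy. Its means were 374 ± 76.3 CPM in the combination and 376 ± 11.5 CPM in monotherapy (SD, 3 mice each). Its log2 fold change was -0.01 ± 0.17 (SE; edgeR adjusted p = 0.995). The combination mice lay on both sides of the monotherapy mice. Psmb9, which takes the place of Psmb6 (17:34181988-34187764, minus strand), had 227, 178 and 168 CPM in the combination, against 222, 198 and 197 CPM in monotherapy. On the log2 scale the fold change of Psmb9 was -0.11 ± 0.15 (SE; edgeR adjusted p = 0.963). Combination library 1 was the highest and the other 2 combination libraries were the lowest. Psmb10, which takes the place of Psmb7 (8:105935735-105938444, minus strand), had 227, 187 and 147 CPM in the combination, against 220, 177 and 185 CPM in monotherapy. For Psmb10 the log2 fold change was -0.05 ± 0.18 (SE; edgeR adjusted p = 0.986). In all 3 immunosubunits, combination library 1 was above combination library 3.

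Nlrc5, the coactivator of class I genes (8:94434356-94527272, plus strand), had 286, 460 and 601 CPM in the combination, against 557, 510 and 562 CPM in monotherapy. Combination library 1 was the lowest of all and combination library 3 the highest, the reverse of B2m. The coefficient of variation was 35.1% in the combination and 5.27% in monotherapy, and the log2 fold change was -0.27 ± 0.24 (SE; 95% interval -0.82 to 0.27; edgeR adjusted p = 0.929). It was -0.01 without combination library 1, -0.54 without combination library 3, and -0.93 with the melanocyte genes Dct and Tyrp1 as a covariate (edgeR adjusted p = 0.0758). Dct had 0, 301 and 377 counts in the combination libraries, against 0, 0 and 0 in monotherapy. For Tyrp1 the counts were 0, 281 and 366, against 1, 0 and 0. The covariate thus sets combination libraries 2 and 3 apart from the rest. The value of -0.93 therefore rests mainly on combination library 1 against monotherapy.

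**Figure D2:**
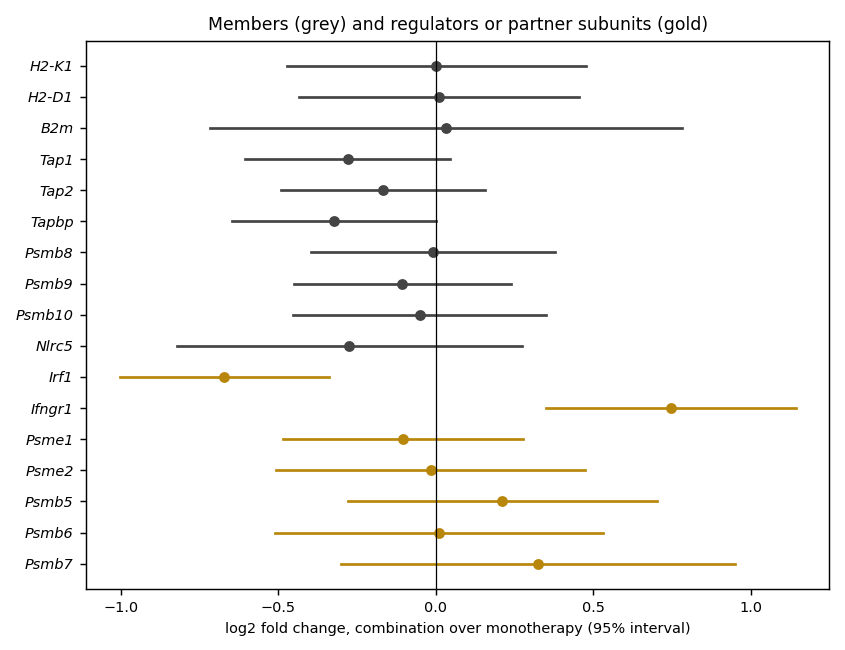
Log2 fold change, combination over monotherapy, with 95% intervals from edgeR, for the class I presentation genes in grey and for regulators and partner subunits in gold. Of the grey intervals only that of Tapbp ends short of 0, at -0.001, and those of Irf1 and Ifngr1 lie clear of 0 before adjustment over all genes.

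Combination libraries 1 and 3 stood apart by transcript length, most visibly for the shortest and the longest of the 10 genes. Over all genes tested, those in the shortest of 5 equal groups by exon length lay 0.24 above their mean log2 CPM in combination library 1 and 0.18 below it (-0.18) in combination library 3. In the longest of these groups the values were -0.18 in combination library 1 and 0.11 in combination library 3. Across the other 4 libraries the medians of these 2 groups lay between -0.05 and 0.08. B2m, with 0.86 kb the shortest of the 10 genes, deviated by 0.50 in combination library 1 and by -0.82 in combination library 3. At its length the trend over all genes was 0.15 in combination library 1 and -0.14 in combination library 3. Nlrc5, with 8.49 kb the longest, deviated by -0.75 in combination library 1 and by 0.32 in combination library 3, where the trend was -0.16 and 0.09. Both genes deviated in the direction of the trend and by more than its size. Of the 10 genes, 9 deviated in its direction in combination library 1, all but Tapbp, and 9 in combination library 3, all but Tap1. The share over all genes was not counted. At some lengths the trend was near 0, as in combination library 1 for Tap2 (0.002) and Psmb9 (0.008), so these counts are a description only. With the trend removed from every library, the log2 fold change was -0.03 for B2m, -0.28 for Nlrc5, -0.28 for Tap1 and -0.33 for Tapbp. In that fit 0 of 10 genes were called, against 175 higher and 24 lower among 15142 genes.

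**Figure D3:**
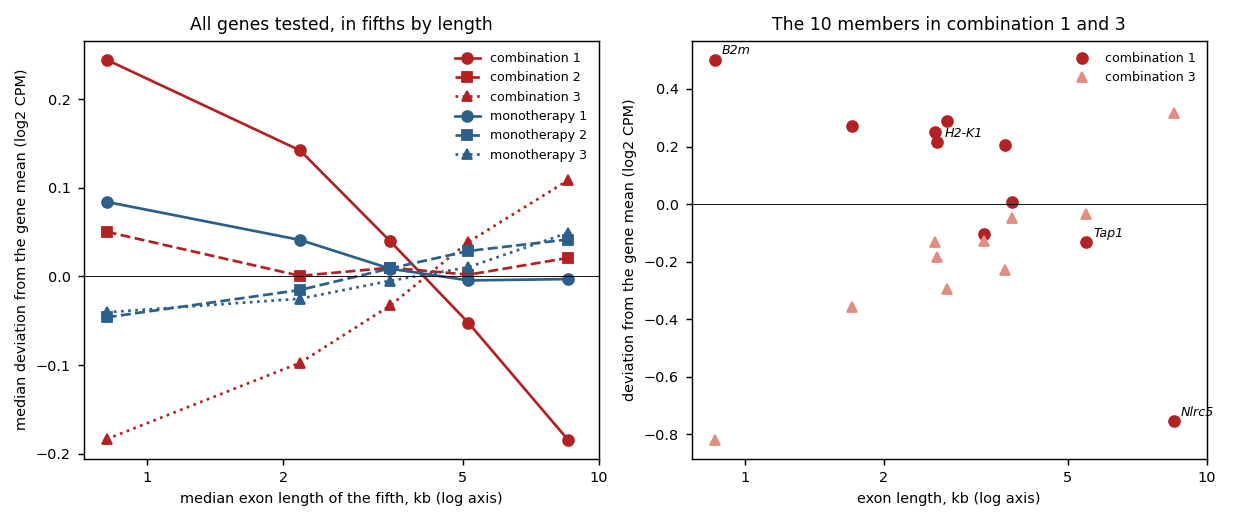
Left, median deviation of log2 CPM from each gene's mean over the 6 libraries, for all genes tested in 5 equal groups by exon length (log axis, kb), one line per library. Right, the same deviation for the 10 class I presentation genes in combination libraries 1 and 3; B2m is at the upper left in combination library 1 and at the lower left in combination library 3, and Nlrc5 runs the other way.

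Some of the 10 genes varied together over the 6 libraries. Tap1, Tap2 and Tapbp had Pearson correlations of 0.85 (Tap1 with Tap2), 0.94 (Tap1 with Tapbp) and 0.89 (Tap2 with Tapbp) in log2 CPM. H2-K1 correlated with Psmb8 at 0.92, and B2m with Psmb10 at 0.96. Nlrc5 ran against H2-K1, at -0.82, and against B2m, at -0.66. These correlations describe 6 libraries of both groups pooled, which share the length trend. The group difference of Tap1 and Tapbp enters their value, and correlations of other gene pairs were not set beside these. Tap1 and Psmb9 also share 212 exon bases on opposite strands, where reads cannot be told apart without a stated strand setting. Exon bases shared with other genes also numbered 698 in Tap2, 726 in Tapbp, 186 in Psmb8 and 78 in Nlrc5.

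Per kilobase of exon, B2m was the most abundant of the 10 genes. Its level was 4157 ± 1728 CPM per kb in the combination and 4066 ± 862 CPM per kb in monotherapy (SD, n = 3 each). H2-K1 followed with 1468 ± 209 CPM per kb in the combination and 1466 ± 75.6 in monotherapy, and H2-D1 with 844 ± 132 in the combination and 837 ± 46.3 in monotherapy. These steps held in 6 of 6 libraries, as did the step of at least 5.59-fold from H2-D1 to Psmb8. Psmb8 (137 ± 27.9 CPM per kb in the combination, 137 ± 4.21 in monotherapy), Tapbp and Psmb10 came next. Tapbp changed places with each of the other 2 between libraries, while Psmb8 was above Psmb10 in 6 of 6 libraries, by 1.09-fold to 1.28-fold. Tap2 and Tap1 were next and did not separate, with Tap2 higher in 4 of 6 libraries. Nlrc5 and Psmb9 were lowest, at 52.9 ± 18.6 and 52.1 ± 8.66 CPM per kb in the combination and at 63.9 ± 3.37 and 56.1 ± 3.87 in monotherapy. The length used is the union of all annotated exons, which understates the level of genes with long unused exons.

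Summed over the 3 subunits, immunosubunit transcripts were above the constitutive catalytic subunits they replace in 6 of 6 libraries. The summed count per length of Psmb8, Psmb9 and Psmb10 over that of Psmb5, Psmb6 and Psmb7 was 1.68, 1.74 and 2.32 in the combination, against 1.99, 2.22 and 2.21 in monotherapy. Combination libraries 1 and 2 had the lowest ratios and combination library 3 the highest. The log2 difference was -0.18 (exact two-sided permutation p = 0.4; adjusted over 8 ratios, 0.8), where 3 mice against 3 cannot give a p below 0.1. By pair, the log2 difference was -0.19 for Psmb8 to Psmb5 (exact p = 0.2), -0.07 for Psmb9 to Psmb6 (exact p = 0.8) and -0.31 for Psmb10 to Psmb7 (exact p = 0.4). Per length, Psmb9 was below Psmb6 in combination library 1, at a ratio of 0.966. In CPM, not divided by length, Psmb9 was above Psmb6 there, at 227 against 120. The exon lengths used were 3.66 kb for Psmb9 and 1.87 kb for Psmb6. The other ratios, among them H2-K1 to B2m at 0.04 and Tap1 to Psmb9 at -0.16, gave adjusted exact p-values of 0.8 or more.

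**Figure D4:**
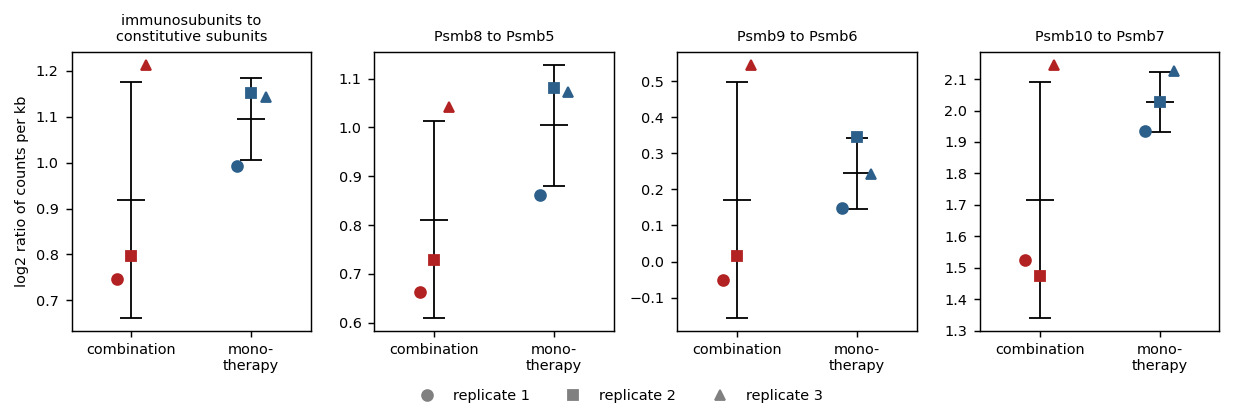
Log2 ratio of counts per kb of immunosubunits to constitutive catalytic subunits in each library, summed and for each pair, with the mean and SD over 3 mice as bars. Axes do not start at 0, and combination library 3 lies above the other 2 combination libraries in every panel.

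The other genes of the pathway were read from 9 further lists, and 0 genes were called in any of them by edgeR on all 6 libraries. The constitutive catalytic subunits had a median log2 fold change of 0.21, with 3 of 3 tested genes above 0, and the structural subunits of the 20S core 0.23, with 11 of 11 above 0. The 19S regulator, which unfolds substrates for the core, had 16 of 18 above 0 and a median of 0.11. Activators and assembly factors had 5 of 9 above 0 and a median of 0.04, with Psme1 and Psme2, the PA28 activator subunits, at -0.10 and -0.02. Structural core subunits also followed the libraries that stood apart: their median deviation was 0.61 in combination library 1, 0.28 in combination library 2 and -0.57 in combination library 3, against 0.16, -0.20 and -0.26 in the monotherapy libraries. In the core list Psmb2 (log2 fold change 0.44), Psma1 (0.38) and Psma4 (0.30) had the smallest p-values. Without combination library 3, Psmb2 was at 0.70 (edgeR adjusted p = 0.0327) and Psma1 at 0.67 (adjusted p = 0.0399), which passed, and without combination library 1 they were at 0.23 and 0.13. Without combination library 1 the core list had 6 of 11 above 0 and a median of 0.01, the constitutive catalytic subunits 1 of 3 above 0 and a median of -0.02, and the 19S regulator 9 of 18 above 0. Without combination library 3 the core list had 11 of 11 above 0 and a median of 0.52. The constitutive catalytic subunits then had 3 of 3 above 0 and 0.43, and the 19S regulator 18 of 18 and 0.21. The positive direction of these 3 lists was thus largely lost without combination library 1. In the core list, combination library 2 also lay above every monotherapy library, and combination library 3 lay below every one.

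Peptide loading and trimming genes had 8 of 13 below 0 and a median of -0.05. Hspa5, an endoplasmic reticulum chaperone, was at -0.41, and Calr, which holds the heavy chain during loading, and Tapbpl, a tapasin relative, were both at -0.23. In these 3 genes, named for the smallest p-values in their list, every combination library lay below every monotherapy library. That held for 3 of the 13 genes of the list, against 7.54% of all genes tested. The nonclassical class I list had 14 of 16 genes tested, with 10 below 0 and a median of -0.13. H2-T24 in it had 42.3, 51.4 and 50.4 CPM in the combination, against 72.6, 61.5 and 78.9 CPM in monotherapy (log2 fold change -0.56 ± 0.14 SE; edgeR adjusted p = 0.154). Mr1, which presents vitamin metabolites, was at -0.35, and H2-Q10 at 0.47.

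Among the regulators upstream of the 10 genes, Irf1 was lower in every combination library than in every monotherapy library, short of the threshold. Irf1, the interferon-induced factor that binds IRF motifs, had 375, 340 and 327 CPM in the combination, against 594, 556 and 511 CPM in monotherapy. Its log2 fold change was -0.67 ± 0.15 (SE; edgeR adjusted p = 0.0884), and it passed in 4 of 17 other settings, among them DESeq2 (adjusted p = 5.45e-04). The list of class I regulators had 12 of 18 below 0 and a median of -0.04, with Nfkb2, an NF-kB subunit, at -0.27. Without combination library 1 that list had 8 of 18 below 0 and a median of 0.03, and without monotherapy library 3 8 of 18 and 0.02. Without combination library 3 it had 12 of 18 below 0 and a median of -0.09.

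Ifngr1, the ligand-binding chain of the interferon-gamma receptor, lay the other way. It had 362, 334 and 242 CPM in the combination, against 206, 186 and 168 CPM in monotherapy (log2 fold change 0.75 ± 0.18 SE; edgeR adjusted p = 0.118), and it passed in 4 of 17 other settings. Socs3 and Socs1, feedback inhibitors of cytokine receptors, were at -0.63 (edgeR adjusted p = 0.186) and -0.50 (adjusted p = 0.471), and Socs3 passed in 2 of 17 other settings. The interferon-gamma list as a whole had 6 of 8 below 0 and a median of -0.10. Without combination library 3 it had 4 of 8 below 0 and a median of -0.01, and without combination library 1 6 of 8 and -0.17. Whether Irf1 or Ifngr1 bears on the level of the 10 genes was not tested.

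**Figure D5:**
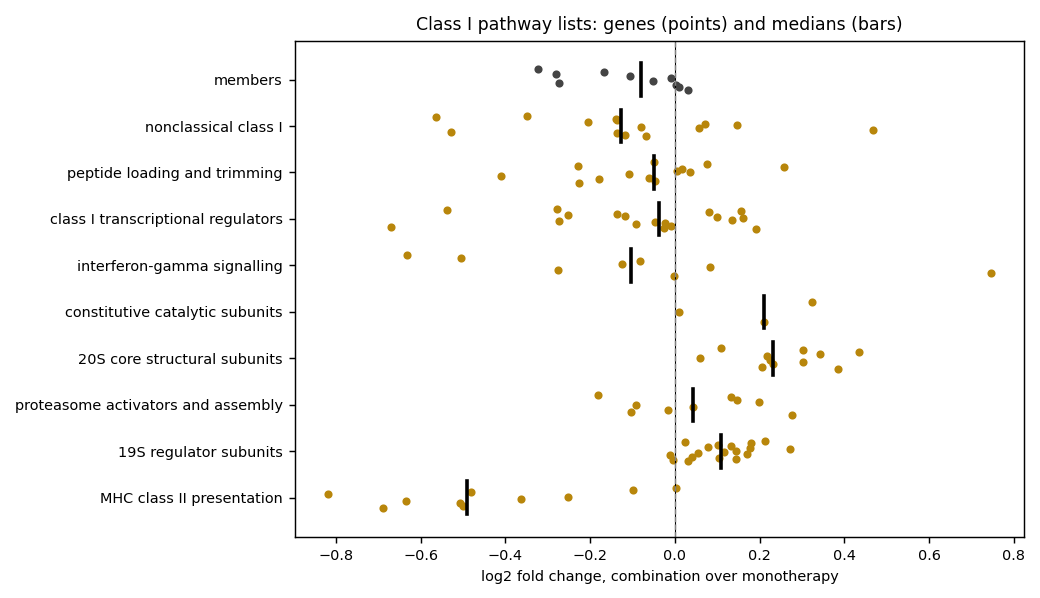
Log2 fold change, combination over monotherapy, of each tested gene in the class I presentation set (grey) and in 9 further lists (gold), with the median of each list as a bar. Proteasome core genes all lie above 0 (6 of 11 without combination library 1) and class II genes lie mostly below it, and no gene shown passed the test over all genes.

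MHC class II genes, which B cells and dendritic cells use to present antigen, had 9 of 10 below 0 and a median of -0.49, and 0 were called. Cd74, the invariant chain, had 21.4, 43.6 and 25.8 CPM in the combination, against 22.5, 58.2 and 65.8 CPM in monotherapy. B cell markers had 5 of 6 below 0 and a median log2 fold change of -0.43. All 6 were detected, and their summed level overlapped between the groups. It was 24.3 to 55.0 CPM in the combination and 34.5 to 50.2 CPM in monotherapy. Cd79b had the most counts of the 6, at 634 to 1103 in a library. With B cell markers as a covariate, the class II list had a median of -0.30 and 9 of 10 below 0. Whether B cells account for the class II values was not tested.

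The sort label matched the data, with 6 of 6 CD8 T cell markers present at a summed 4062 to 5492 CPM in the combination and 4494 to 5535 CPM in monotherapy. Summed markers of NK cells, which share genes with effector CD8 cells, were at 473 to 813 CPM in the combination and 467 to 589 CPM in monotherapy, while Ncr1, which defines NK cells, had at most 13 counts in a library. Summed CD4 T cell markers were at 1.58 to 5.12 CPM in the combination and 4.01 to 7.82 CPM in monotherapy, and myeloid and dendritic cell markers at 8.24 to 12.1 CPM in the combination and 6.94 to 19.9 CPM in monotherapy. Melanocyte markers were at 29.0 to 51.9 CPM in the combination and 20.9 to 27.1 CPM in monotherapy. Pmel alone had 822 to 1153 counts in every library. Dct had 0, 301 and 377 counts in the combination libraries, against 0 counts in all 3 monotherapy libraries. Tyrp1, Tyr and Mlana had at most 6 counts each in combination library 1 and in monotherapy, where the sum was thus nearly all Pmel. Stromal and endothelial markers were at 120 to 138 CPM in the combination and 136 to 168 CPM in monotherapy. Most of this sum was Pecam1, at 3930 to 5544 counts in a library. Col1a1 had 48 to 349 counts, Col1a2 6 to 173, Cdh5 4 to 15 and Pdpn 0 to 11. With B cell markers as a covariate, the median log2 fold change of the 10 class I genes was -0.09. Whether other cell types had a part in the class I values was not tested. Libraries held 34568074 to 40101346 counts, of which the 10 genes took 1.07% to 1.27%.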

How the data were processed

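The deposited counts are whole reads per gene, not normalized. The submitters' processing notes name STAR 2.5.2b, featureCounts (Subread 1.5.2) and DESeq2. Settings, strand use and the annotation were not given in the sources used here. Of 49315 genes, 49056 were in GENCODE M21 (GRCm38), 91.4% of them with the same coordinates. The table's 6 columns that matched no sample were not used.

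The tests ran in edgeR 4.0.16 (R 4.3.3): filterByExpr, TMM factors of 0.901 to 1.12, quasi-likelihood F-test, calls at an adjusted p under 0.05. DESeq2 1.42.0 and limma-voom (limma 3.58.1) were alternatives, with other scalings, filters, covariates and left-out libraries. CPM are TMM-scaled; log2 CPM used a prior count of 2. Chi-square per gene between libraries was 9.94 to 296, more than sampling of reads gives in every pair.

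The 10 genes and all lists were chosen with earlier results of these data known. Named list genes are the 3 of smallest p per list, plus Psmb5, Psmb6, Psmb7, Psme1, Psme2 and Irf1; a gene this rule takes is not reported here.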

Additional observations from a re-analysis of the deposited data

How the results depend on the processing

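Across 17 other settings, 0 of the 10 class I genes were called higher or lower, so the counts of calls among them did not move. Over all genes, 144 were higher and 20 lower; these became 340 and 113 without a count filter, 258 and 59 with DESeq2, and 58 and 4 with B cell markers as a covariate. With Dct and Tyrp1 as a covariate 97 were higher and 62 lower, in a fit whose contrast rests mainly on combination library 1. The higher share of calls was 87.8%, against 75.1% without a filter and 61.0% with Dct and Tyrp1. Leaving out 1 library gave 32 to 233 higher and 2 to 49 lower. The median log2 fold change of the 10 genes, -0.08, was 0.17 with Dct and Tyrp1 and ran from -0.20 to 0.03 without 1 library. The log2 ratio difference of immunosubunits to constitutive subunits, -0.18, ran from -0.32 to -0.09 without 1 library. The causes were not tested. Same-numbered libraries deviated together with correlations of 0.15, -0.06 and 0.28, against -0.23 to 0.12 for differently numbered ones. These values do not settle whether the numbers pair mice. The labels do not say so, and the main fit took no pairs. The replicate block gave 231 higher and 57 lower. Removing the length trend, and counting the lists without combination library 1 or 3 or monotherapy library 3, were chosen after seeing the data. Among uncalled genes near 0, the sign changed in 8 settings for B2m, 7 for H2-K1, 4 each for H2-D1 and Psmb8, 3 for Psmb10 and 1 for Psmb9, and among other named proteasome genes in 7 for Psmb6, 4 for Psme2, 2 for Psme1 and 1 each for Psmb5 and Psmg2. With 3 mice a group, any change inside an interval given is compatible with these data. The intervals are not limits of detection. Those of Tapbp, Irf1 and Ifngr1 lay clear of 0, and the main fit called none of these genes.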

Other observations

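Among 8369 other genes with at least 10 CPM, the 5 whose log2 CPM was most like the mean of the 10 class I genes over 6 libraries were Parl (Pearson correlation 0.992), Alkbh4 (0.988), Rgcc (0.982), Surf6 (0.976) and Puf60 (0.975). The mean log2 CPM of the 10 genes was 9.40, 9.23 and 9.13 in the combination libraries, against 9.43, 9.36 and 9.39 in monotherapy. Parl had 45.3, 38.4 and 35.5 CPM in the combination, against 45.8, 44.5 and 44.5 CPM in monotherapy. The best of many correlations over 6 libraries that share scaling is a description only.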
